A study of Mus musculus with 18 samples.

Results

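A mouse epiblast stem cell line called NT-LE, derived from a nuclear transfer embryo whose extra-embryonic ectoderm was large, was compared with 3 lines, named FT.1 to FT.3, whose embryos came from fertilization. The arrays were taken by their titles, which gave 3 NT-LE arrays and 9 FT arrays, 12 of the 18 in the series. The series as a whole set 3 FT lines against 3 lines made by somatic cell nuclear transfer, with 3 biological repeats of each line hybridised to Illumina mouse bead arrays. All 12 arrays came from embryos of the B6D2 strain collected before or at the start of primitive streak formation, and the cells were grown on serum-coated dishes in defined medium with 20 ng/mL activin A and 12 ng/mL basic FGF. Embryo morphology was normal for the FT lines, and no further treatment was applied. NT-LE is 1 line from 1 kind of embryo, so the 3 repeats measure how much a culture of that line varies, and origin, embryo morphology and line cannot be told apart. Of 45281 probes, 17620 exceeded the background limit on each of the 3 arrays of 1 line or more and were tested, and these probes carried the names of 9937 genes.

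Epiblast stem cells are the culture form of the post-implantation epiblast, the embryonic tissue that forms the streak and then the germ layers. They are held in that state by activin and FGF signals, and they express Pou5f1 with epiblast genes such as Fgf5 and Otx2. In nuclear transfer the genome comes from a somatic nucleus that carries its parental marks with it. Imprinted genes are transcribed from 1 parental allele only, according to DNA methylation laid down in the egg or the sperm, and these marks are not reset when an embryo is cloned. The extra-embryonic ectoderm is the trophoblast tissue that lies against the epiblast and signals to it.

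Levels are given below as quantile-normalized log2 intensities, on which a difference of 1 is a doubling and the background limit of an array lay between 7.22 and 7.30. Before normalization the NT-LE arrays were brighter than all FT arrays, with mean intensities of 985 to 1142 against 636 to 792. The repeats of NT-LE and of FT.3 were also more spread, with root mean square SDs of 0.222 and 0.237 against 0.0935 and 0.0942 for FT.1 and FT.2. FT.3 replicate 1 and NT-LE replicate 2 deviated from their own lines in the same way (r = 0.823 across probes, which are not independent). The part of brightness and of these 2 arrays in the results was not tested beyond the values without them. The lines also differed in sex-linked transcripts. Xist, the RNA that coats the inactive X chromosome, was at 6.51 in FT.1 and 6.50 in FT.2, under the background limit, and at 10.90 in FT.3 and 11.11 in NT-LE. The Y-linked gene Eif2s3y was at 10.62 and 10.33 in FT.1 and FT.2 and not above background in FT.3 or NT-LE, so FT.3 was the FT line that shared this pattern with NT-LE.

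The root mean square difference was larger between NT-LE and each FT line than between any FT lines. The root mean square difference over tested probes was 0.387 to FT.1, 0.360 to FT.2 and 0.281 to FT.3, against 0.188 to 0.266 between pairs of FT lines. By limma with Benjamini-Hochberg adjustment over all tested probes, 4266 probes (24.2%) differed between NT-LE and the mean of the FT lines, 2425 higher (13.8%) and 1841 lower (10.4%), and 149 of them by at least 2-fold. Under median scaling, which moved the median of all genes to 0.30, 9936 probes were called, 9305 higher and 631 lower. Against FT.1 alone 4301 probes (24.4%) differed, against FT.2 3726 (21.1%) and against FT.3 1617 (9.18%). Under the same test 328 probes (1.86%) differed between FT.2 and FT.1, 949 (5.39%) between FT.3 and FT.1 and 328 (1.86%) between FT.3 and FT.2. These comparisons share arrays. Among these pairwise counts, those between FT lines moved most with single arrays. Without FT.3 replicate 3 they rose to 2388 between FT.3 and FT.1 and 772 between FT.3 and FT.2, and 2388 is above the 1721 between NT-LE and FT.3 in that setting. FT.3 and FT.1 gave 1458 without NT-LE replicate 2 and 596 without FT.3 replicate 2. Leaving out 1 array lowered the counts to between 360 and 419 for FT.3 and FT.1 (an FT.1 array left out), 139 and 144 for FT.3 and FT.2 (an FT.2 array) and 173 and 195 for FT.2 and FT.1 (an array of either line). The count of NT-LE against FT.1 fell to 2751 without FT.1 replicate 2, and that against FT.2 to 2316 without FT.2 replicate 1 and 2251 without FT.2 replicate 3. With FT.3 replicate 1 and NT-LE replicate 2 both left out, the counts against the FT mean, FT.1, FT.2 and FT.3 were 4603, 4932, 4418 and 2091, and those between FT lines 711 for FT.2 and FT.1, 1493 for FT.3 and FT.1 and 557 for FT.3 and FT.2.

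**Figure D1:**
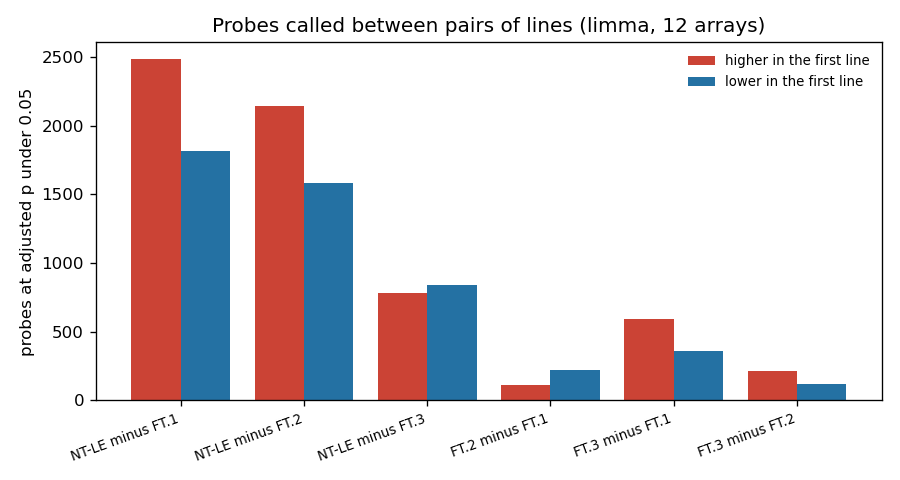
Number of probes at an adjusted p under 0.05 in each of 6 line pairs (limma, 12 arrays), split into probes higher and lower in the line named first. The 3 pairs with NT-LE hold 1617 to 4301 probes and those between FT lines 328 to 949.

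A stricter reading asked for a difference from each FT line in 1 direction. It held for 1144 probes (6.49%), of which 537 (3.05%) were higher and 607 (3.44%) lower in NT-LE (4692 and 261 under median scaling), and 124 of them also passed 2-fold against the FT mean, 43 higher and 81 lower. When the 4 line means took the place of the arrays, so that NT-LE was set against the spread between FT lines, 66 probes (0.375%) passed, 9 higher (0.0511%) and 57 lower (0.323%). The balance of directions turned under median scaling, with 430 higher and 82 lower. In that fit the single NT-LE mean was assumed to vary as the FT lines do. Of these 66 probes 33 were above background on 0 of the 3 NT-LE arrays. Such probes entered the test only through an FT line, and their share among all tested probes is not given here. The line-mean count rested on single arrays and lines, rising to 747 without FT.3 replicate 1 and to 1949 without FT.3, and falling to 40 without FT.3 replicate 3 and to 9 without FT.2.

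The largest differences were falls of paternally expressed imprinted genes. Snurf, Mest, Ndn, Peg3 and Impact were bright in all 3 FT lines and not above background on any NT-LE array, and Mkrn3 and Peg10 followed at lower levels. Among genes represented by their brightest probe, 2650 of 9937 (26.7%) passed the test, 15.5% higher and 11.2% lower. Of 21 tested imprinted genes in a list of 38, 7 rose and 9 fell, and 4 rose and 7 fell against each FT line separately, where 7.32% of all genes passed, 3.48% higher and 3.83% lower. Split by expressed allele, a split made after values were seen, 9 paternally expressed genes were tested, of which 7 fell and Rtl1 rose. Their median difference was -2.49 as measured and -1.95 with the 6 genes that were at background in NT-LE set at their bounds, while the median over all genes was 0.03. Snurf and Zdbf2 are not in the list and enter none of these counts.

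Snurf, the upstream reading frame of the Snurf-Snrpn transcript at the centre of the imprinted domain that corresponds to the Prader-Willi region in humans, had the largest difference of any named gene. The 9 FT arrays read 14.05 to 14.34 (median 14.18) and the NT-LE arrays 6.55, 6.41 and 6.45. Lack of overlap between NT-LE and FT arrays was a condition for naming Snurf, and 7.0% of all genes met it in this direction. Every FT array was bright while every NT-LE array lay under the background limit. The difference was -7.72 ± 0.065 (SE; adjusted p = 1.3e-15), and -7.82, -7.64 and -7.70 against FT.1, FT.2 and FT.3. Since NT-LE held only a bound, Snurf was at least 122-fold lower, taking the lowest normalized signal that counted as above background on each array. All 3 Snurf probes fell, with differences between -7.72 and -3.96.

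Ndn, which codes for necdin, a growth-restraining protein of neurons, and Mkrn3, a makorin ring finger protein, belong to the same imprinted domain on chromosome 7. Ndn read 11.83 to 12.30 on the FT arrays (median 12.11) and 6.67, 6.82 and 6.86 on the NT-LE arrays, at least 28.6-fold lower (adjusted p = 8.4e-13). Mkrn3 read 8.97 to 9.42 in FT (median 9.21) and 6.72, 6.77 and 6.67 in NT-LE, at least 3.86-fold lower. Both genes were thus above background in every FT culture and in no NT-LE culture. With Snurf they make 3 neighbouring genes of 1 domain whose signal lay under the background limit in NT-LE.

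The other genes at background in NT-LE came from separate imprinted loci. Mest, a mesoderm-expressed hydrolase-like gene of chromosome 6, read 11.41 to 12.39 on the FT arrays (median 12.03) and 6.61, 6.46 and 6.69 on the NT-LE arrays, at least 26.5-fold lower (adjusted p = 8.2e-12). Peg3, a zinc finger gene of proximal chromosome 7, read 11.76 to 12.34 in FT (median 12.10) and 6.82, 6.84 and 6.98 in NT-LE, at least 28.6-fold lower (adjusted p = 8.4e-13). The FT line means spanned 11.73 to 12.21 for Mest and 11.92 to 12.20 for Peg3. Impact, an inhibitor of the stress kinase GCN2, differed among the FT lines, with means of 10.04 in FT.1, 12.52 in FT.2 and 12.11 in FT.3, and read 6.74, 6.89 and 6.78 in NT-LE. It was at least 19.7-fold lower than the FT mean (adjusted p = 8.4e-13), but with line means as replicates its adjusted p was 0.15. Snurf, Mest, Ndn, Peg3, Mkrn3 and Zdbf2 were among the 36 genes (0.362%) that passed that test, with adjusted p between 7.9e-05 and 0.0046.

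Zdbf2, a paternally expressed zinc finger gene of chromosome 1 that was not in the list, fell from 10.13 ± 0.17 (SD of 3 FT line means) to 7.47 ± 0.11 (SD, n = 3 arrays) and stayed above background on all 3 NT-LE arrays. Peg10, a retrotransposon-derived gene needed in the placenta, was low in FT at 7.85 and not above background in NT-LE, at least 1.51-fold lower (adjusted p = 7.6e-06). Dimmer probes showed smaller differences for the same transcripts. The dimmest Peg3 probe differed by -0.53 and the second Impact probe by -0.86, both from FT levels near background. All probes of Snurf, Mest, Peg3 and Impact that were tested passed against the FT mean. The second Impact probe was above background on 0 FT.1 arrays and did not pass against FT.1 (limma, adjusted p = 0.088).

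Not every paternally expressed gene fell to background. Igf2, the placental and fetal growth factor, read 11.92 to 12.69 on the FT arrays and 12.55, 12.60 and 12.62 in NT-LE, a difference of 0.18 ± 0.14 (SE) that did not pass (adjusted p = 0.36). Dlk1, a membrane ligand related to Notch ligands, fell by 0.21 (adjusted p = 0.043), with 8.72 in NT-LE against 9.31, 8.64 and 8.82 in FT.1 to FT.3. The Dlk1 direction turned to 0.06 under median scaling, and the call rested on FT.1. Rtl1, a retrotransposon-like gene beside Dlk1, rose by 0.36 from 7.17, close to background (adjusted p = 0.015), and lost its call with FT.3 replicate 1 and NT-LE replicate 2 both left out. As background, the Igf2 and Dlk1-Rtl1 clusters have their germline methylation on the paternal chromosome, whereas those of Snurf, Mest, Peg3, Peg10 and Impact have it on the maternal one. By that background 6 listed genes belong to maternally methylated clusters (Mest, Ndn, Mkrn3, Peg3, Peg10 and Impact), and these 6 were the listed paternally expressed genes that fell against each FT line. This grouping was made with the values known and was given no test.

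The promoters of the 4 genes at background in NT-LE with the brightest FT signal are shown because imprinted expression is read from methylated CG pairs near such starts. Methylation itself was not measured on these arrays. Each window runs from 250 bases before to 50 bases after a transcript start in RefSeq (assembly GRCm38.p6), 5′ to 3′ on the gene's strand, with CG pairs in capitals. Snurf lies at chr7:60005150-60005449 on the minus strand, Mest at chr6:30737800-30738099 on the plus strand (1 of 3 windows listed for it), Peg3 at chr7:6730370-6730669 on the minus strand and Ndn at chr7:62348027-62348326 on the plus strand.
Snurf: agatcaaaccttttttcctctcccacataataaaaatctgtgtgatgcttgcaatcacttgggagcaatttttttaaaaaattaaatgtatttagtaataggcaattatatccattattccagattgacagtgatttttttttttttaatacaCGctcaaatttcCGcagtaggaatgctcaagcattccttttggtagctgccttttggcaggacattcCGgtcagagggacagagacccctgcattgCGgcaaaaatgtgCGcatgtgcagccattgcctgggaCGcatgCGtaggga
Mest: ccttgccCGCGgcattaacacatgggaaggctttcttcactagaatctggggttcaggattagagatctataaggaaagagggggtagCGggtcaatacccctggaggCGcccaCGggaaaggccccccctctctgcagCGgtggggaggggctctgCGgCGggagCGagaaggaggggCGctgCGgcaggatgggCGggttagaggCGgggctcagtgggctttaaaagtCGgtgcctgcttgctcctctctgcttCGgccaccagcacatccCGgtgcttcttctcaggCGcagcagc
Peg3: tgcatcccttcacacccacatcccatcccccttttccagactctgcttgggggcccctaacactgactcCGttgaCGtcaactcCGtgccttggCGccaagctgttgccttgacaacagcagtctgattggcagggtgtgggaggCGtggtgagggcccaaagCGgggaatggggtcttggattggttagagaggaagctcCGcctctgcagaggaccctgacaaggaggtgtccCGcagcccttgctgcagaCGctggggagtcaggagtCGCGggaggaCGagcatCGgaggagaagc
Ndn: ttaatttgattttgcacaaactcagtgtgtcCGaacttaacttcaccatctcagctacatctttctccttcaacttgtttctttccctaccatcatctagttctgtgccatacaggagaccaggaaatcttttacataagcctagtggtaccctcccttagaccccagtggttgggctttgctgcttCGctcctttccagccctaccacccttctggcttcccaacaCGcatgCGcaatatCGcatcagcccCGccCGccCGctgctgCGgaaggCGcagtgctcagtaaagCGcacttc
The 2 letters CG, which read the same on both strands, occur 7 times in the Snurf window, 17 times in that of Mest, 13 times in that of Peg3 and 11 times in that of Ndn. Among all 32851 RefSeq promoter windows, 52.1%, 31.4%, 37.9% and 41.4% held at least as many. Another of the 3 Mest windows, at chr6:30733256-30733555, held 8, and 48.6% of all windows held at least as many. The 4 windows shown were therefore ordinary in CG count. No window was matched for Cdkn1c.

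Among maternally expressed imprinted genes rises were more frequent than falls. Of 9 tested, 6 rose (Cdkn1c, Igf2r, Grb10, Ppp1r9a, Phlda2 and Rian) and 1, Slc22a18, fell, with a median difference of 0.41. Over all genes 15.5% rose and 11.2% fell, and the split by allele was made after values were seen. Cdkn1c, which codes for the cell cycle inhibitor p57, read 7.09 to 7.96 on the FT arrays (median 7.61) and 10.06, 9.91 and 9.63 in NT-LE. It was 5.06-fold higher than the FT mean (difference 2.34 ± 0.088 SE, adjusted p = 2.5e-09), without overlap, although it was not above background in FT.2, and with line means as replicates its adjusted p was 0.064. Grb10, an adaptor that restrains insulin and growth factor receptors, rose from 14.07, 13.89 and 13.63 in FT.1 to FT.3 to 14.48 ± 0.06 (SD, n = 3). Its second, dimmer probe differed by 0.29 and did not pass (limma, adjusted p = 0.17). Grb10 lies on chromosome 11, where most called genes fell.

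Phlda2, a growth-restraining gene of the placenta next to Cdkn1c, rose by 0.41 (adjusted p = 0.0011) and passed against each FT line. Igf2r, the receptor that clears Igf2, rose by 0.71 (adjusted p = 0.0013), but its level in FT.3 of 10.40 was close to the 10.71 of NT-LE and that pair did not pass (adjusted p = 0.24). Slc22a18 fell by 0.25 (adjusted p = 0.038) and did not pass with those 2 arrays, FT.3 replicate 1 and NT-LE replicate 2, left out. H19 had no named probe here and Meg3 was above background on at most 8 arrays, too few in each line to be tested.

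**Figure D2:**
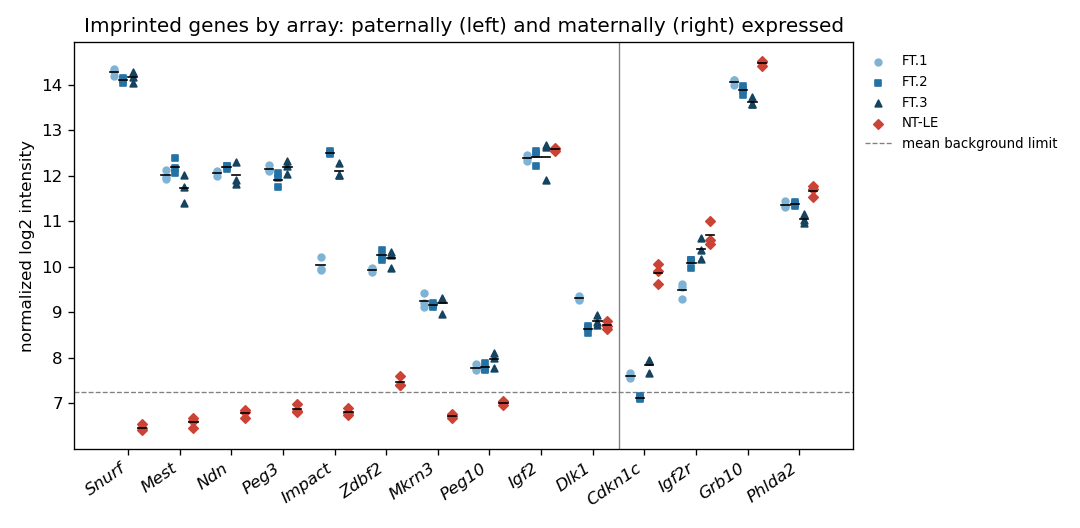
Normalized log2 intensity of 14 imprinted genes on each of the 12 arrays, by line (bars are line means), with paternally expressed genes left of the vertical line and maternally expressed ones right of it; the dashed line is the mean background limit. The 7 genes from Snurf to Mkrn3 lie at or near the limit in NT-LE only, whereas Igf2 and Dlk1 do not.

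Next come the 12 genes with the largest rise among those that passed against each FT line without overlap of NT-LE and FT arrays. That requirement left out Xist, which rose by 3.15 against the FT mean but did not pass against FT.3, and the lack of overlap is part of the choice. Over all genes 8.45% were separated in this direction and 7.0% in the other. The roles of the 12 were mixed. Acot1, a fatty acyl-CoA thioesterase, read 12.34, 12.46 and 12.30 in NT-LE. The FT lines did not share 1 level, with means of 7.68, 7.85 and 10.59, and FT.3 alone stood between the other FT lines and NT-LE. The difference was 3.66 ± 0.11 (SE) against the FT mean but 1.77 against FT.3, and close relatives of Acot1 in the same gene cluster may share its probe signal. Gstm5, a glutathione S-transferase, read 7.07 to 7.82 on the FT arrays and 10.98, 11.03 and 11.03 in NT-LE, a measured difference of 3.56 ± 0.066 (SE) in which FT.3 was not above background on any array, and passed with line means as replicates (adjusted p = 0.010). Gusb, the lysosomal beta-glucuronidase, rose by 2.35 from 7.80 ± 0.61 (SD of 3 FT line means). Erdr1, a sequence near the tip of the sex chromosomes, rose by 1.70 but ranged from 11.66 to 13.67 among FT line means.

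The other genes named by that rule include signals and transcription factors. Shh, the Sonic hedgehog morphogen of node and notochord, read 8.52 to 9.95 on the FT arrays (median 9.34) and 11.43, 10.91 and 11.03 in NT-LE. The lowest NT-LE array was above the highest FT array, and the difference was 1.79 ± 0.17 (SE; adjusted p = 1.3e-05), 3.46-fold. Both Shh probes rose. Gbx2, a homeobox factor of the epiblast and of the anterior hindbrain, read 8.31 to 9.52 in FT (median 8.61) and 10.11, 10.57 and 10.05 in NT-LE, and it passed with line means as replicates (adjusted p = 0.021). Lmx1a, a homeobox factor of the roof plate and ventral midbrain, rose by 1.44 from 7.57, near background. Gal, the precursor of the neuropeptide galanin, rose by 1.62 as measured, with FT.2 not above background, Sgip1, an endocytic adaptor of neurons, by 1.67, Samd9l, an interferon-induced gene, by 1.76, and Dynlrb2, a dynein light chain, by 1.52 as measured, with FT.1 not above background.

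**Figure D3:**
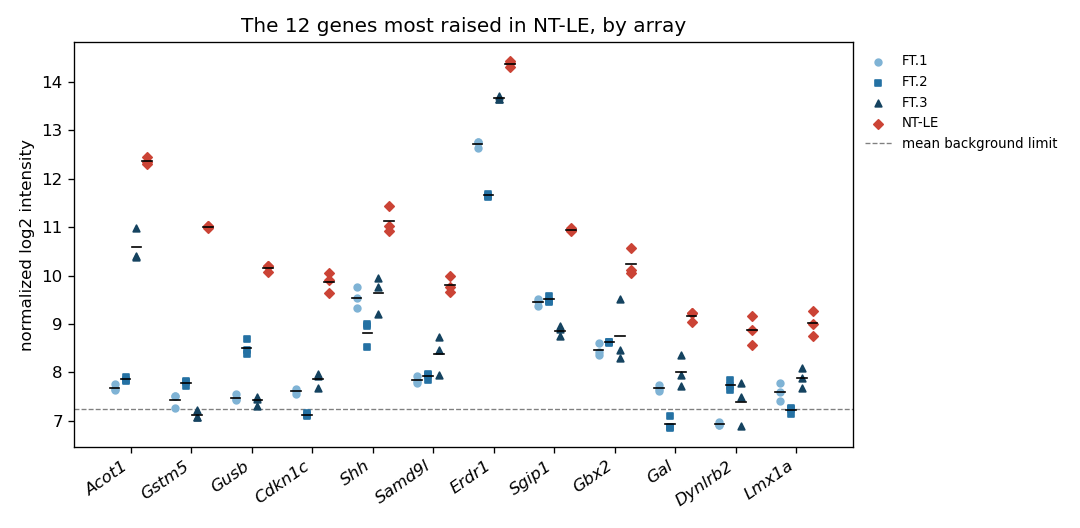
Normalized log2 intensity of the 12 genes with the largest rise in NT-LE among those apart from each FT line without overlap, on each of 12 arrays, by line, with line means as bars and the mean background limit dashed. NT-LE lies above all FT arrays for each gene by that choice, and Acot1 and Erdr1 also differ among the FT lines.

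Besides the imprinted genes, 5 genes were among the 12 with the largest fall by the same requirement, which left out Eif2s3y (a difference of -2.61 from the FT mean). Wdr46, a nucleolar protein of ribosome assembly, read 9.88 to 10.17 on the FT arrays (median 10.08) and 7.69, 7.76 and 7.54 in NT-LE, 5.26-fold lower (adjusted p = 4.2e-10), and its second probe fell as well. St14, the membrane serine protease matriptase, fell from 10.01 ± 0.06 (SD of 3 FT line means) to 8.01 ± 0.12 (SD, n = 3), on both probes. Ube2cbp, a ubiquitin pathway gene, fell by 1.89 on its 1 tested probe. All 3 passed with line means as replicates (adjusted p = 0.0014, 0.0032 and 0.0030). The 2 others depended on the probe. Pdxdc1, a decarboxylase-like gene, gave -2.13 and -1.99 on its 2 brightest probes, which passed against each FT line, -1.25 on another that passed against the FT mean, and 0.27 and 0.08 on 2 dimmer probes that did not pass. Wdr82, a subunit of a histone H3K4 methyltransferase complex, fell on 1 of 4 probes, its brightest, so its difference is that of a single probe.

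One chromosome was low as a whole. The median difference of the 855 tested genes of chromosome 11 was -0.25, against 0.01 to 0.08 on the other 18 autosomes and 0.05 on the X chromosome. On chromosome 11 87.6% of genes lay below 0, 51.7% were called lower and 1.87% higher. Median scaling in place of quantile normalization moved the median of all genes to 0.30 and that of chromosome 11 to 0.00, so its position relative to the rest kept a gap of about the same size. In every other alternative with chromosome 11 genes the median stayed between -0.30 and -0.20. The shift is small for 1 gene and was seen as the position of a whole distribution, which was set beside the other chromosomes without a test.

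The lower level was found against each FT line, with medians of -0.29 against FT.1, -0.28 against FT.2 and -0.20 against FT.3. The NT-LE arrays read -0.28, -0.19 and -0.28 relative to the FT mean, and the FT arrays -0.13 to 0.04, with FT.3 replicate 3 lowest among them. FT.3 itself lay lower than FT.1 on chromosome 11, with a median of -0.07, the lowest of its 19 autosomes. Divided into 10 parts by gene order, each part of chromosome 11 had a median between -0.30 and -0.20, so no part stood out. Of 381 genes lower in NT-LE than in each FT line, 179 (47.0%) lay on chromosome 11, which holds 8.60% of tested genes. That is 20.9% of its genes, against 0.426% to 4.91% on other autosomes. Leaving its genes out of the test left 3463 called probes, 2348 higher and 1115 lower. The arrays measure RNA, and the number of chromosomes in these cells was not measured.

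**Figure D4:**
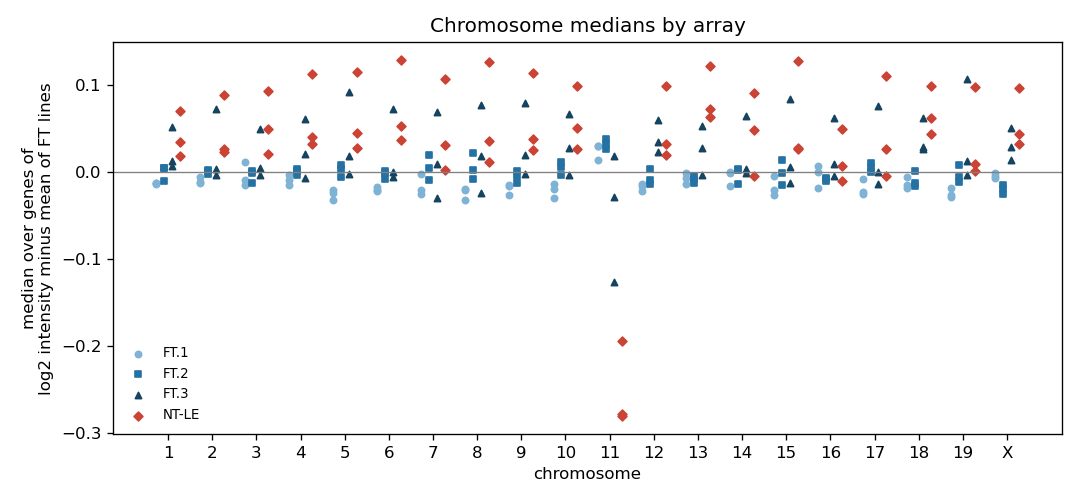
Median over the tested genes of each chromosome of the log2 intensity minus the mean of the FT lines, 1 point per array. The NT-LE arrays lie between -0.28 and -0.19 on chromosome 11 and at -0.01 or above on the others shown.

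Markers of the cell type were bright in NT-LE as in the FT lines. Pou5f1, the central pluripotency factor, read 13.60 to 13.98 on the FT arrays and 13.77, 13.59 and 13.97 in NT-LE. Fgf5 and Otx2, which mark the post-implantation epiblast, differed by -0.06 and -0.09 and did not pass (adjusted p = 0.49 and 0.40), with signs that turned to 0.30 and 0.27 under median scaling, close to the median of all genes there. Nanog differed by 0.30 ± 0.12 (SE; adjusted p = 0.092) and Sox2 by -0.19 ± 0.097 (adjusted p = 0.17), neither past the threshold against the FT mean. Against single lines, Sox2 was lower than in FT.1 (-0.555, limma, adjusted p = 0.0056) and Nanog higher than in FT.2 (0.50, adjusted p = 0.034). The dimmer probes of Nanog, Pou5f1 and Sox2 differed by -0.31, -0.35 and 0.10 and did not pass. The label of epiblast stem cells thus had its defining markers in NT-LE as in FT.

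Of 12 tested core pluripotency genes, Lefty2, a Nodal antagonist, rose by 0.39 and Tdgf1, the Nodal co-receptor, fell by 0.43. For this and the next 2 lists, 15.5% of all genes rose and 11.2% fell. Of 9 tested naive pluripotency genes 3 rose, Gbx2, Esrrb and Fbxo15, the last 2 by 0.33 and 0.25 from levels near background, while Klf4 and Zfp42 were at 7.33 and 7.36 in NT-LE and did not pass. Of 10 tested post-implantation epiblast genes 3 fell, Cldn6 by 0.29, Cer1 by 0.28 and the de novo methyltransferase gene Dnmt3b by 0.26. All 3 of these turned to small positive values, 0.04 to 0.08, under median scaling, and none passed against FT.3, where 10.5% of all genes did.

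Genes of the primitive streak and mesendoderm were lower in part. Of 12 tested, 5 fell and 1 rose, where 11.2% of all genes fell and 15.5% rose, with a list median of -0.28, and under median scaling 3 fell and 3 rose with a median of 0.01 while that of all genes was 0.30. Evx1, a posterior streak homeobox gene, read 8.34 to 9.64 on the FT arrays and 8.01, 8.03 and 7.70 in NT-LE, a difference of -1.10 ± 0.12 (SE; adjusted p = 3.9e-05). Its groups did not overlap, but FT.1 at 9.61 lay well above FT.2 and FT.3 at 8.56 and 8.85. Gsc, the organizer gene goosecoid, read 12.42 to 12.86 in FT and 12.05, 11.67 and 11.70 in NT-LE, lower by 0.91 ± 0.093 (SE) on the log2 scale (adjusted p = 2.9e-05), and these 2 genes passed against each FT line.

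Mixl1, a homeobox gene of the nascent mesendoderm, fell by 0.80, Lhx1, a factor of the organizer, by 0.66 and Sox17, of the definitive endoderm, by 0.53, and on their brightest probes none of the 3 passed against FT.3. The second Lhx1 probe fell by 0.81 and passed against each FT line (adjusted p = 0.030 against FT.3). Nkx1-2, a homeobox gene of the caudal epiblast, rose by 0.59 from 7.38, near background (adjusted p = 0.0012). In FT.2 it was above background on 2 of 3 arrays. Eomes and Fgf8 differed by -0.19 and 0.01 and did not pass. T had no named probe here. Lhx1 lies on chromosome 11, and without that chromosome's genes 4 of 9 fell. In bulk RNA a lower level cannot be told apart from fewer cells that express the gene.

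The extra-embryonic ectoderm was large in the embryo that gave NT-LE, so markers of that tissue were read gene by gene. Elf5, a defining trophoblast stem cell factor, was above background on 0 of 12 arrays. Cdx2, another, read 7.07 to 7.97 on the FT arrays and 8.34, 8.10 and 7.54 in NT-LE. The groups overlapped, and the difference of 0.65 ± 0.15 (SE) passed against the FT mean (adjusted p = 0.0081) but not against FT.3 (adjusted p = 0.30). Of 16 tested genes of this list 5 rose (Cdx2, Bmp4, Fgfr2, Esrrb and Ets2) and 1, Krt7, fell, against 15.5% and 11.2% of all genes, with a median of 0.08. By limma 0 of the 16 passed against each FT line, as 7.32% of all genes did. Bmp4, the signal from this tissue to the epiblast, rose by 0.39 (adjusted p = 0.039), from 9.03, 9.21 and 9.50 in FT.1 to FT.3 to 9.64. Eomes, Tfap2c and Gata3, also used by trophoblast, did not pass. Of 10 extra-embryonic endoderm genes Gata6 fell, by 0.50. Of 7 fibroblast genes 3 rose, Acta2, Tagln and Pdgfra, while Thy1, Vim and Dcn did not pass and Col1a1, Col1a2 and Col3a1 were below background.

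Signalling genes moved in both directions at sizes mostly under 1 on the log2 scale. The counts of these lists stand beside 15.5% of all genes that rose and 11.2% that fell. In the Nodal and activin list 4 of 13 rose and 1 fell. Furin, the protease that matures Nodal, rose by 0.56 (adjusted p = 5.7e-04), and Smad3, its transducer, by 0.31. Furin did not pass against FT.3 (limma, adjusted p = 0.052) and Smad3 passed against no single FT line. The second Smad3 probe differed by 0.16 and did not pass. Of the 13 genes, 0 passed against each FT line in 1 direction, as 7.32% of all genes did. In the BMP list 4 of 14 rose and 1 fell. Nog, the secreted BMP antagonist noggin, read 7.25 to 8.18 on the FT arrays and 8.75, 8.59 and 8.23 in NT-LE, higher by 0.95 ± 0.13 (SE), although it lies on chromosome 11. Chrd, another antagonist, rose by 0.26 and Id1, a target that BMP induces, fell by 0.65 (adjusted p = 4.8e-04). Nog and Id1 passed against each FT line.

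In the Wnt list 2 of 13 rose, where 15.5% of all genes did, the feedback gene Nkd1 by 0.71 and the transcription factor Lef1 by 0.30. Wnt8a fell by 0.50 while differing more among FT lines, from 9.56 to 10.62. In the FGF and ERK list 3 of 12 rose and 3 fell, where 15.5% and 11.2% of all genes did. Against each FT line 0 of the 12 were higher and 1 was lower, where 3.48% and 3.83% of all genes were. Etv4, a target of FGF signals on chromosome 11, was lower by 0.55 and Egr1 by 0.54. Dusp4, an ERK phosphatase whose sign turned under median scaling, was lower by 0.34. A second Dusp4 probe was called the other way, higher by 0.40 (adjusted p = 0.024), so the direction of Dusp4 depends on the probe. Ccn2, a matrix-associated target of YAP, was called higher by 1.05 against the FT mean, with FT.1 at 8.11 and FT.2 and FT.3 at 12.12 and 12.26. Against those 2 lines it differed by -0.24 and -0.38 and did not pass.

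Of the 3 epithelial genes that fell, 2 lie on chromosome 11. Krt19, a simple epithelial keratin, read 9.38 to 10.71 on the FT arrays (median 10.05) and 8.59, 8.50 and 8.27 in NT-LE, 2.94-fold lower (adjusted p = 1.2e-05). Cldn7, a tight junction claudin, fell by 0.84, and Cdh1, E-cadherin, by 0.32 (adjusted p = 0.049), a value that turned to 0.06 under median scaling. Of 13 tested genes 3 fell and 1, Zeb1, a repressor of Cdh1, rose by 0.62, where 11.2% of all genes fell and 15.5% rose. Krt19 and Cldn7 lie on chromosome 11, and without its genes 0 of 11 were called lower by limma. Cdh1, just under the threshold before, lost its call there while its difference stayed the same.

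Among sex-linked genes NT-LE was near FT.3 for Xist, Eif2s3y and Eif2s3x, but not for Kdm6a or Erdr1. Eif2s3x, the X-linked partner of Eif2s3y, was at 11.89, 11.74 and 12.40 in FT.1 to FT.3 and at 12.55 in NT-LE, and its difference from FT.3 did not pass (adjusted p = 0.25). Kdm6a, an X-linked H3K27 demethylase, was higher than in each FT line, including FT.3 (by 0.59, adjusted p = 0.0018). Of the other lists, DNA methylation and chromatin had 1 higher and 1 lower of 8, hypoxia and glycolysis 1 and 3 of 14, cell stress 4 and 3 of 17, immediate early genes 2 and 3 of 11, cell cycle 2 and 2 of 16, mitochondrial respiration 1 and 0 of 12, ribosome 1 and 2 of 10, germ cell 0 and 1 of 3 and neural ectoderm 1 and 0 of 4. With so few members, most of these shares lay near the background of 26.7%. Gadd45a, a stress-induced gene, rose by 0.60 in NT-LE and Ccng1, a p53 target on chromosome 11, fell by 0.55, both against each FT line on their brightest probes. A second Gadd45a probe and the dimmest Ccng1 probe did not pass against FT.3 (limma, adjusted p = 0.083 and 0.081).

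**Figure D5:**
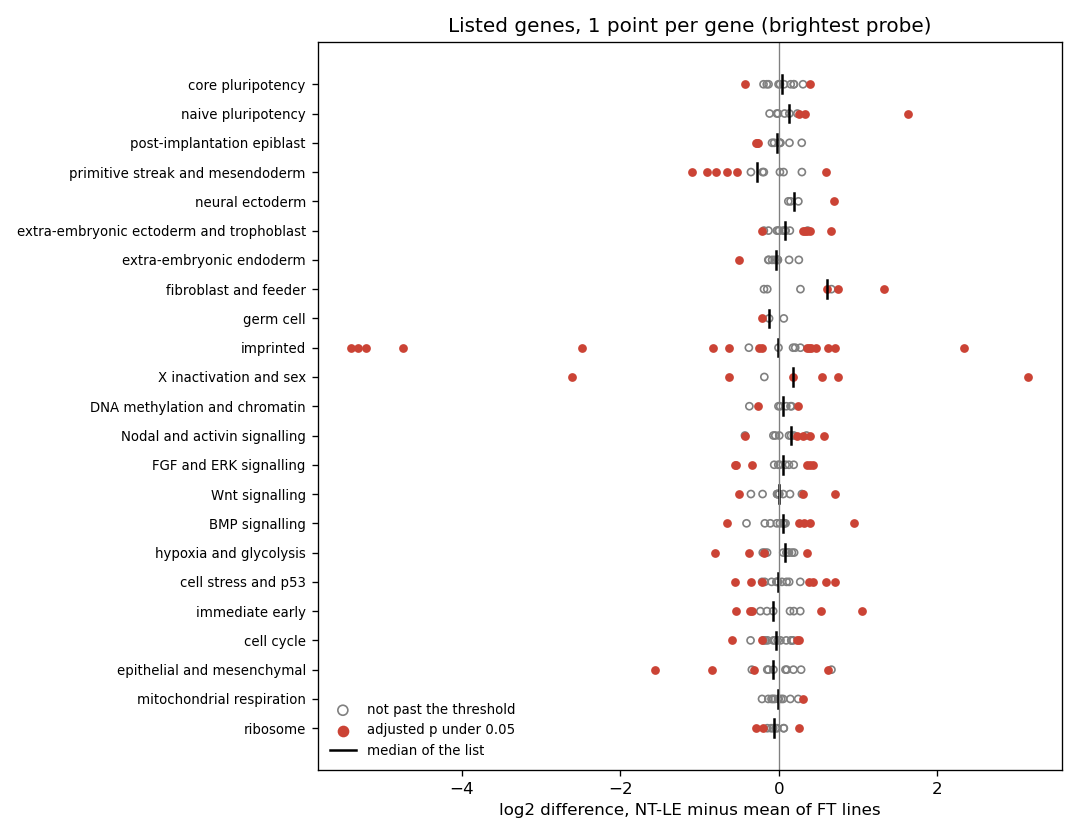
Log2 difference of NT-LE from the mean of the FT lines for each tested member of 23 gene lists (brightest probe), filled where the adjusted p was under 0.05, with list medians as bars. Listed imprinted genes reach -5.40 and 2.34 (Snurf, at -7.72, is not in the list), Xist and Eif2s3y set the sex-linked range, and most other members lie between -1 and 1. Under median scaling the median of all genes moves to 0.30, and single genes move by different amounts.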

How the data were processed

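Biotinylated cRNA from total RNA of 18 cultures was hybridised to Illumina mouse bead arrays with 45281 probes. The deposited non-normalized table holds 1 intensity per probe and array, exported with BeadStudio per the submitters' processing notes, and its background treatment is not given in the sources used here. The deposited series matrix holds values on a log2-like scale, with lumi named in the same notes; against the intensities the slope was 1.05 at the bright end and 0.347 at the dim end, and its transformation and centring remain unknown. It was used as an alternative.

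Intensities of 12 arrays were log2-transformed and quantile-normalized (limma 3.58.1, R 4.3.3). A probe was above background over the mode of an array's log2 intensities plus 3 times the spread below the mode, since detection p-values were not used here, and was tested when above it on all 3 arrays of 1 line or more. limma's lmFit and eBayes were run with 1 mean per line, two-sided, with Benjamini-Hochberg adjustment at 0.05, and again on 4 line means (2 residual degrees of freedom). The code was tested on simulated data. Depth does not apply, and the number of arrays limits precision. The labels call the repeats biological without naming separate derivations, so p-values measure the spread between cultures of a line.

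Genes were named from the platform's annotation, in which 34885 probes have 1 symbol, 18 several and 10378 none, and 34807 matched RefSeq's gene table. A gene stood for its brightest tested probe, and other probes were compared. The genes named were, per direction, the 12 with the largest difference that passed against each FT line without overlap of arrays, a fixed set of markers, and up to 4 genes per list with the smallest adjusted p. Genes named beyond it (Zfp42, Klf4, Sox17, Rtl1 and other list members, Acta1, Ptch1, Igf2r, Grb10, Phlda2, Kdm5d, Eif2s3x) were chosen after their values were seen. Members and lists were chosen with earlier results of these data known. Alternatives covered the source of values, background, normalization, filters, weights, prior, blocks and left-out arrays or lines.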

Additional observations from a re-analysis of the deposited data

How the results depend on the processing

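Under median scaling the counts of called probes against the FT mean, FT.1, FT.2 and FT.3 were 9936 (9305 higher and 631 lower), 9252, 9270 and 5681, those apart from each FT line 4953 and with line means 512. Array weights gave 7986, 8790, 8210, 1754 for FT.2 against FT.1 and 1821 apart from each FT line. A 2-fold limit left 149, 268, 185 and 125, with 60, 62 and 42 between FT lines and 124 apart from each. Line as a random block gave 1699. Without FT.1 the counts were 2330 against the FT mean, 1027 against FT.3 and 155 between FT.3 and FT.2; without FT.2 they were 2482, 1007 against FT.3, 440 between FT.3 and FT.1 and 9 with line means; without FT.3 they were 6609, 505 between FT.2 and FT.1, 3656 apart from each and 1949 with line means. Probes above background on all 12 arrays gave 204 between FT.2 and FT.1, 204 between FT.3 and FT.2, and 21 with line means. Line means gave 37 on the authors' deposited processed values and 112 with trend and robust eBayes. With FT.3 replicate 1 and NT-LE replicate 2 both left out, the counts became 711, 1493 and 557 between FT lines and 238 with line means. The cause was not tested for these counts. Leaving out 1 array at a time gave 3189 to 5347 against the FT mean, 2751 to 5115, 2251 to 4411 and 1089 to 1856 against FT.1, FT.2 and FT.3, 173 to 397, 360 to 2388 and 139 to 772 between FT lines, 835 to 1358 apart from each, and 40 to 747 with line means. Median scaling turned the sign of Fgf5 (0.2983), Otx2 (0.2732), Dlk1 (0.0578), Dnmt3b (0.0402), Cldn6 (0.0688), Cer1 (0.0841), Kit (0.1601), Dusp4 (0.0251), Pfkl (0.1628), Ccne1 (0.1452), Cdh1 (0.0593) and Rpl23 (0.0929), and leaving out FT.1 that of Ccn2 (-0.3046). These are the 13 sign turns in which the value was called in the main fit or in the alternative. Of the other values of single named genes 3135 kept their side of the threshold, 267 lost the call and 13 gained it. Sign turns of values called in neither fit are among the 3135. Tfap2c, for one, kept its sign in 27 of 34 alternatives and passed in 0. The replicate numbers did not pair arrays (median r of deviations -0.0037 for the same number, 3 of 12 arrays closest to their own number), and with the replicate block the counts were 3890, 3886, 3267 and 1305 against the FT mean and each FT line. Without genes on chromosomes X and Y, a setting chosen after seeing the data like that without chromosome 11, 4163 probes were called. Signal over background limits dim genes, whose differences are compressed.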

Other observations

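Hedgehog pathway genes were listed after Shh was seen among the largest rises. Of 8 tested, 4 rose (Shh, Ptch1, Gli2 and Smo) and Boc, a co-receptor, fell, with 3 of the rises held against each FT line and a list median of 0.36. Over all genes 15.5% rose and 3.48% were higher than each FT line, and the count includes Shh, for which the list was drawn up. Ptch1, the receptor whose transcription the pathway itself raises, read 8.61 to 9.64 on the FT arrays and 10.53, 9.99 and 10.22 in NT-LE, a difference of 1.11 ± 0.13 (SE; limma, adjusted p = 8.7e-05). Gli1 and Hhip, 2 other transcriptional targets, were below the background filter. The second Ptch1 probe, near background, differed by 0.08 and did not pass. Gli2 rose by 0.88 and Gli3 differed by 0.23 without passing.

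Genes of actin filaments and smooth muscle were likewise listed after values were seen. Of 12 tested, 7 rose, where 15.5% of all genes did, and Myl9, a myosin light chain, fell by 0.75. Acta2, smooth muscle actin, read 11.75 to 12.61 on the FT arrays and 13.56, 13.24 and 13.47 in NT-LE. Acta1, skeletal muscle actin, rose from 7.36, near background, to 8.68 ± 0.29 (SD, n = 3). On their brightest probes both were 2.51-fold higher than the FT mean, without overlap of NT-LE and FT arrays. The dimmer Acta2 probes with differences of 1.17 and 1.04 did overlap. They did not pass against FT.3 (limma, adjusted p = 0.13 and 0.11). Tagln, Tpm1 and Vcl, which bind actin filaments or anchor them, rose by 0.74, 0.64 and 0.41. Myh9, Tpm2 and Tagln2 did not pass.

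The 2 other nuclear transfer lines, from embryos of normal morphology, were read on a normalization of all 18 arrays. In NT.2, as in NT-LE, Snurf, Mest, Ndn, Peg3, Impact, Mkrn3 and Peg10 were each above background on 0 of its 3 arrays, with Snurf at 6.39 ± 0.04 (SD, n = 3). NT.1 kept them, with Snurf at 14.36 ± 0.07 and Mest at 12.42 ± 0.14. Zdbf2 differed from that pattern, with 6.97 for NT.1, 6.94 for NT.2 and 7.48 for NT-LE. Cdkn1c was at 8.74 in NT.2 and 9.91 in NT-LE and was not above background in NT.1, at 6.66. Gstm5 was high in NT.1 at 11.28 and NT-LE at 11.06 and low in NT.2 at 7.28. Shh and Gbx2 were at 11.18 and 10.29 in NT-LE against 8.93 and 8.13 in NT.1 and 9.56 and 8.83 in NT.2. The chromosome 11 median relative to the FT lines was -0.11 for NT.1, -0.22 for NT.2 and -0.25 for NT-LE. These are descriptions of 3 lines with no test between them.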
